A study of Homo sapiens with 3 samples.

Results

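The DNA replication machinery is described here through 44 genes that encode the proteins which license, unwind and copy DNA, out of 58735 genes in the count files. The members were taken by gene name from a list, and all 44 were found. They were arranged in 11 roles, from origin recognition to the supply of deoxynucleotides. The data are RNA-seq counts from DU145, a castration-resistant human prostate carcinoma line. There were 3 libraries. The control library was labelled only as the knockdown control. The paper's control for its knockdown lines carried the empty pLKO.1 lentiviral vector, though its RNA-seq section calls the control cells only DU145. The 2 libraries labelled PD-L1 knockdown came from cells carrying 1 of 2 short hairpins against PD-L1 (knockdown 1 and knockdown 2). The paper describes selection with puromycin after infection for its stable lines. Whether each line was a clone or a pool was not given in the sources used here. The study followed growth of the cells after PD-L1 was targeted, which makes the transcripts of DNA replication a direct question for these libraries.

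DNA replication starts when the origin recognition complex, CDC6 and CDT1 load the ring of MCM2 to MCM7 on DNA in the G1 phase. In S phase CDC45 and the GINS complex turn that ring into the active helicase, polymerase alpha with its primase lays the first primers, and polymerases epsilon and delta copy the leading and the lagging strand with the sliding clamp PCNA. RPA covers the single strands, FEN1 and LIG1 finish the lagging-strand pieces, and ribonucleotide reductase and thymidylate synthase supply the building blocks. Many of these genes are textbook targets of the E2F transcription factors, so that their transcripts are plentiful in cycling cells and low in resting ones.

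The libraries held 14733088 (control), 14738298 (knockdown 1) and 15786457 (knockdown 2) counts. CD274, which encodes PD-L1, had 204, 213 and 224 counts in that order, a fitted log2 fold change of 0.05 (SE 0.20, edgeR adjusted p = 0.947), so the targeted transcript was not lower and the libraries are named by their labels only. The paper checked PD-L1 protein in its stable knockdown lines, DU145 among them, by Western blot. Protein is not measured by these counts. The epithelial keratins KRT8 and KRT18 had 7784 to 19056 counts, while the prostate markers KLK3, KLK2 and TMPRSS2 had 0 counts in each library (3 counts, the most that a count of 0 allows, equal 0.190 to 0.204 CPM, the count scaled to the library). Of the thyroid markers, looked at because the series text names another cell line, NKX2-1 had 1833 to 2590 and FOXE1 645 to 738 counts, and TG, TSHR and PAX8 had at most 29. The leukocyte markers had at most 15 counts, and of the fibroblast markers DCN and LUM had 0, COL1A2 3 to 6 and COL1A1 98 to 149. The control has no replicate and the hairpins differ, so p-values rest on the spread between the 2 libraries labelled PD-L1 knockdown. In the edgeR fit that spread was pooled over genes, so a gene's own spread between these libraries had no weight in its p-value. Fewer replicating cells and less transcript per cell cannot be told apart in such bulk libraries.

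The replication genes were strongly transcribed in all 3 libraries. They summed to 64145, 66934 and 67890 counts, which is 0.435%, 0.454% and 0.430% of each library. Every member averaged 100 counts or more, with single values from 186 to 7138. Per length, as FPKM averaged over the 3 libraries, the median member stood at 18.6, against 8.26 for the 10861 well-counted genes (mean count of 100 or more), and 35 of the 44 members were above that value. By the listed gene lengths the highest member, PCNA, was 42.1 times the lowest, POLA2.

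Levels differed widely between the roles. PCNA, the clamp that holds polymerases on DNA, had 98.7, 108 and 92.9 FPKM, and MCM3 had 96.6, 102 and 94.4. MCM4 was the third with 66.3, 69.2 and 63.0. PCNA and MCM3 did not differ beyond the spread between the libraries, and MCM4 lay below both in each library. At the other end POLA2, the regulatory subunit of polymerase alpha, had 2.23, 2.20 and 2.67 FPKM, ORC4 had 2.91, 2.78 and 2.07, and GINS3 had 3.63, 3.604 and 3.68. POLA2 and ORC4 overlap in their values over the libraries, whereas GINS3 was above both in each of the 3. By role the median was highest for the MCM2-7 helicase (53.6 FPKM), and lowest for polymerase alpha-primase (7.39) and origin recognition (8.48).

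**Figure D1:**
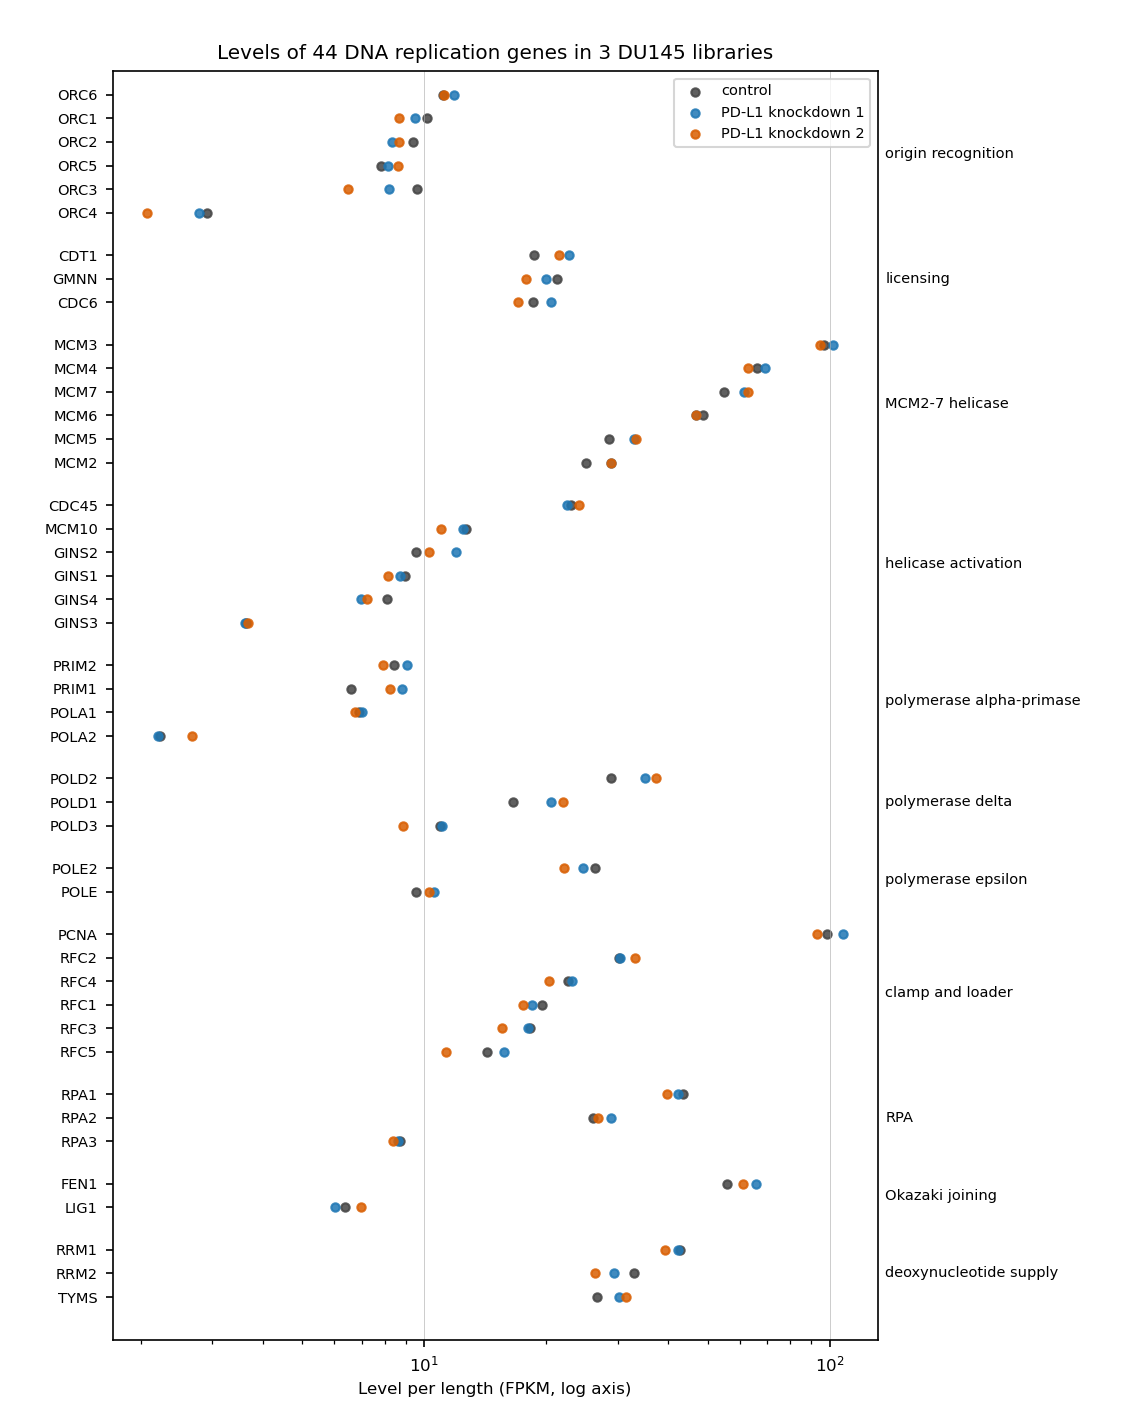
Level per length (FPKM, log axis) of each of the 44 replication genes in the control, knockdown 1 and knockdown 2 libraries, grouped by role and ordered by mean level; each point is 1 library. PCNA and MCM3 lie near 100 FPKM and POLA2 and ORC4 below 3, and for most genes the 3 points nearly coincide.

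Subunits that work together in 1 complex were not equal in transcript level. Among the 6 helicase subunits the highest, MCM3, exceeded the lowest, MCM2, by 3.54 times in the mean of the 3 libraries, and by 3.86, 3.53 and 3.27 times in the control, knockdown 1 and knockdown 2. The figure depends on the length used, because the listed length is the union of all exons: for MCM5 it is 7338 bases against 3534 in the principal transcript. With principal transcript lengths, a choice made after seeing the data, MCM3, MCM4 and PCNA stood at 116, 111 and 108 FPKM, and the span within the helicase was 3.10 times.

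A shared promoter feature was looked for in RefSeq sequence (GRCh38.p14), from 250 bases before to 50 bases after each gene's start. A sequence was found for 38 of the 44 members; GINS4, MCM4, MCM5, POLD3, RPA2 and RPA3 had no entry. The 4 words of the E2F consensus, TTTCCCGC, TTTCGCGC, TTTGCCGC and TTTGGCGC, were searched on both strands, and words on opposite strands may overlap each other. At least 1 of them was held by 18 of the 38 member promoters (47.4%) and by 1164 of 35116 promoters of the whole table (3.31%), which were not matched for base composition. CCAAT, the word bound by NF-Y, was in 22 of the 38 (57.9%) and in 34.6% of all. These are letter matches and were not measured as binding.

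The windows below show the E2F word nearest to the start for helicase subunits, for the licensing factors CDC6 and CDT1, for PCNA, which with MCM3 had the highest FPKM, and for ORC3, the member with the lowest fold change. Each is 30 bases on the strand of the gene, 5′ to 3′, with the word in capitals. Capitals that begin with G show a word that reads on the opposite strand.
MCM2, chr3:127598402-127598431, plus strand: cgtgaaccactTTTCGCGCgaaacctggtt
MCM3, chr6:52284728-52284757, minus strand: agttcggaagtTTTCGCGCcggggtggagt
MCM6, chr2:135876511-135876540, minus strand: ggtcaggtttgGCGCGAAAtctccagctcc
MCM7, chr7:100101388-100101417, minus strand: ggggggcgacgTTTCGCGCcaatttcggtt
CDC6, chr17:40287875-40287904, plus strand: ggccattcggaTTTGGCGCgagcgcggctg
CDT1, chr16:88803743-88803772, plus strand: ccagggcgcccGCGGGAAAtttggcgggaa
PCNA, chr20:5126663-5126692, minus strand: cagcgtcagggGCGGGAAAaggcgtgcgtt
ORC3, chr6:87590112-87590141, plus strand: cgcgagggcgcGCGGGAAAtcccgagtgca
In MCM3, MCM7, PCNA, CDT1 and ORC3 the word shown begins 4, 9, 59, 35 and 12 bases before the start, in MCM6 it begins 86 bases before it, and in MCM2 and CDC6 it lies just after it.

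Between the libraries labelled PD-L1 knockdown and the control, the replication genes showed no difference that passed the test. With edgeR's quasi-likelihood test and Benjamini-Hochberg adjustment over 19849 tested genes, 0 of the 44 members had an adjusted p under 0.05, where 0.353% of all tested genes did; the lowest adjusted p was 0.217, of POLD1. With DESeq2 and with limma-voom the count was also 0. At an unadjusted p under 0.05 there were 5 members (11.4%), against 11.7% of all tested genes. Of these, POLD1, POLD2 and PRIM1 were above the control and ORC3 and RRM2 below it, where 9.08% and 6.56% of the well-counted genes were above and below. DESeq2 gave 2 such members, POLD1 and POLD2, and limma-voom 4.

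The fitted log2 fold changes ran from -0.39 for ORC3 to 0.37 for PRIM1, with 23 members above 0 and 21 below. Their median was 0.0037, beside 0.0015 for all tested genes. Of the 44, 34 lay within 0.2 of 0 on the log2 scale.

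The standard errors of the members, worked back from the fold change and the test statistic, were 0.11 to 0.21 in the edgeR fit. They set bounds to the differences under its pooled error only. The 95% interval of the fold lay within 2-fold of the control for all 44 members and within 1.5-fold for 40, the farthest bound being 1.67-fold, for PRIM1. It lay within 1.3-fold for 20 members.

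Origin recognition, the first step, held the lowest member. ORC3, a subunit of the complex that marks origins (chromosome 6, 87590067 to 87667453, plus strand, GRCh38), had 525, 445 and 378 counts in the control, knockdown 1 and knockdown 2. Both libraries labelled PD-L1 knockdown were below the control, and knockdown 2 was the lower. The fitted log2 fold change was -0.39 (SE 0.16, adjusted p = 0.302). From knockdown 2 alone it was -0.57. ORC4 had 385, 366 and 292 counts, a value of -0.27 (SE 0.17, adjusted p = 0.563) that came from knockdown 2, since it was -0.49 from that library alone and -0.07 from knockdown 1 alone. ORC5 was the highest of the role with 432, 447 and 506 counts, fitted at 0.09. ORC1, ORC2 and ORC6 lay between these, and the median of the 6 was -0.16. With trends of the ratios with length and GC content removed that median was -0.0156 and ORC4 was at -0.0230.

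The licensing factors went different ways within their errors. CDT1, which brings the helicase to origins, had 922, 1121 and 1132 counts (log2 fold change 0.24, SE 0.14, adjusted p = 0.479). GMNN encodes geminin, the inhibitor of CDT1, and had 781, 732 and 696 counts (-0.17, SE 0.14). CDC6 had 1530, 1688 and 1495 counts, so that the control lay between the other two.

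The helicase subunits differed little among the libraries. MCM5, the highest, had 3108, 3572 and 3855 counts (0.21, SE 0.12, adjusted p = 0.475), and MCM6, the lowest, had 2975, 2855 and 3045 (-0.06, SE 0.12). MCM2 and MCM7 stood near MCM5, with 0.20 and 0.18, and MCM3 and MCM4 near MCM6, with 0.02 and -0.01. MCM3 had 5238, 5490 and 5445 counts and MCM4 6868, 7138 and 6945, the deepest counts of all members. For the factors that activate the helicase the range was -0.19 for GINS4, with 659, 566 and 625 counts, to 0.21 for GINS2, with 463, 577 and 529. GINS2 was 1.252 times the control in knockdown 1 (exact 95% counting interval 1.11 to 1.42) and 1.07 times in knockdown 2. GINS3 (275, 272 and 297 counts), GINS1, MCM10 and CDC45 lay between -0.12 and 0.01.

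The polymerases and the primase held the 3 highest members. POLD1 encodes the catalytic subunit of polymerase delta (chromosome 19, 50384204 to 50418016, plus strand) and had 1209, 1495 and 1710 counts. Both libraries labelled PD-L1 knockdown were above the control, at 1.24 times (interval 1.15 to 1.34) and 1.32 times (1.23 to 1.42). The fitted log2 fold change was 0.36 (SE 0.13, adjusted p = 0.217). POLD2, its accessory subunit, had 1583, 1909 and 2174 counts, fitted at 0.32 (SE 0.12, adjusted p = 0.263). The third subunit measured, POLD3, had 895, 899 and 771 counts, fitted at -0.14 (SE 0.14).

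PRIM1, the catalytic subunit of primase (chromosome 12, 56731596 to 56752373, minus strand), had 238, 318 and 317 counts. The latter 2 libraries were nearly equal and both above the control, with a log2 fold change of 0.37 (SE 0.19, adjusted p = 0.426). Its partner PRIM2 had 583, 624 and 583 counts, and POLA1, the polymerase subunit, had 650, 658 and 675 (-0.01, SE 0.15). POLA2 had 190, 186 and 242 counts. In polymerase epsilon, POLE, the catalytic subunit, had 2346, 2595 and 2690 counts (0.13, SE 0.12), and POLE2 had 1159, 1075 and 1033 (-0.18, SE 0.13).

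For the clamp and its loader the fitted differences were small. PCNA had 2155, 2342 and 2159 counts (0.02, SE 0.12). Among the 5 loader subunits the lowest fit was RFC1, with 1951, 1828 and 1865 counts (-0.13), and the highest RFC2, with 992, 991 and 1154 (0.06). RFC5 had 687, 757 and 581 counts, higher than the control in knockdown 1 and lower in knockdown 2. RPA1 had 3536, 3422 and 3450 counts (-0.09) and RPA2 780, 864 and 854 (0.09), with RPA3 between them. FEN1, the flap endonuclease, had 2051, 2410 and 2399 counts (0.18, SE 0.12), and LIG1, the ligase, had 622, 586 and 726 (0.03, SE 0.15).

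Among the genes of deoxynucleotide supply RRM2, the small subunit of ribonucleotide reductase that is made in S phase (chromosome 2, 10120698 to 10131419, plus strand), had 2595, 2315 and 2220 counts. Both libraries labelled PD-L1 knockdown were below the control, with a log2 fold change of -0.24 (SE 0.12, adjusted p = 0.408). Its partner RRM1 had 2644, 2611 and 2596 counts, and TYMS, thymidylate synthase, had 979, 1103 and 1226 (0.20, SE 0.13).

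**Figure D2:**
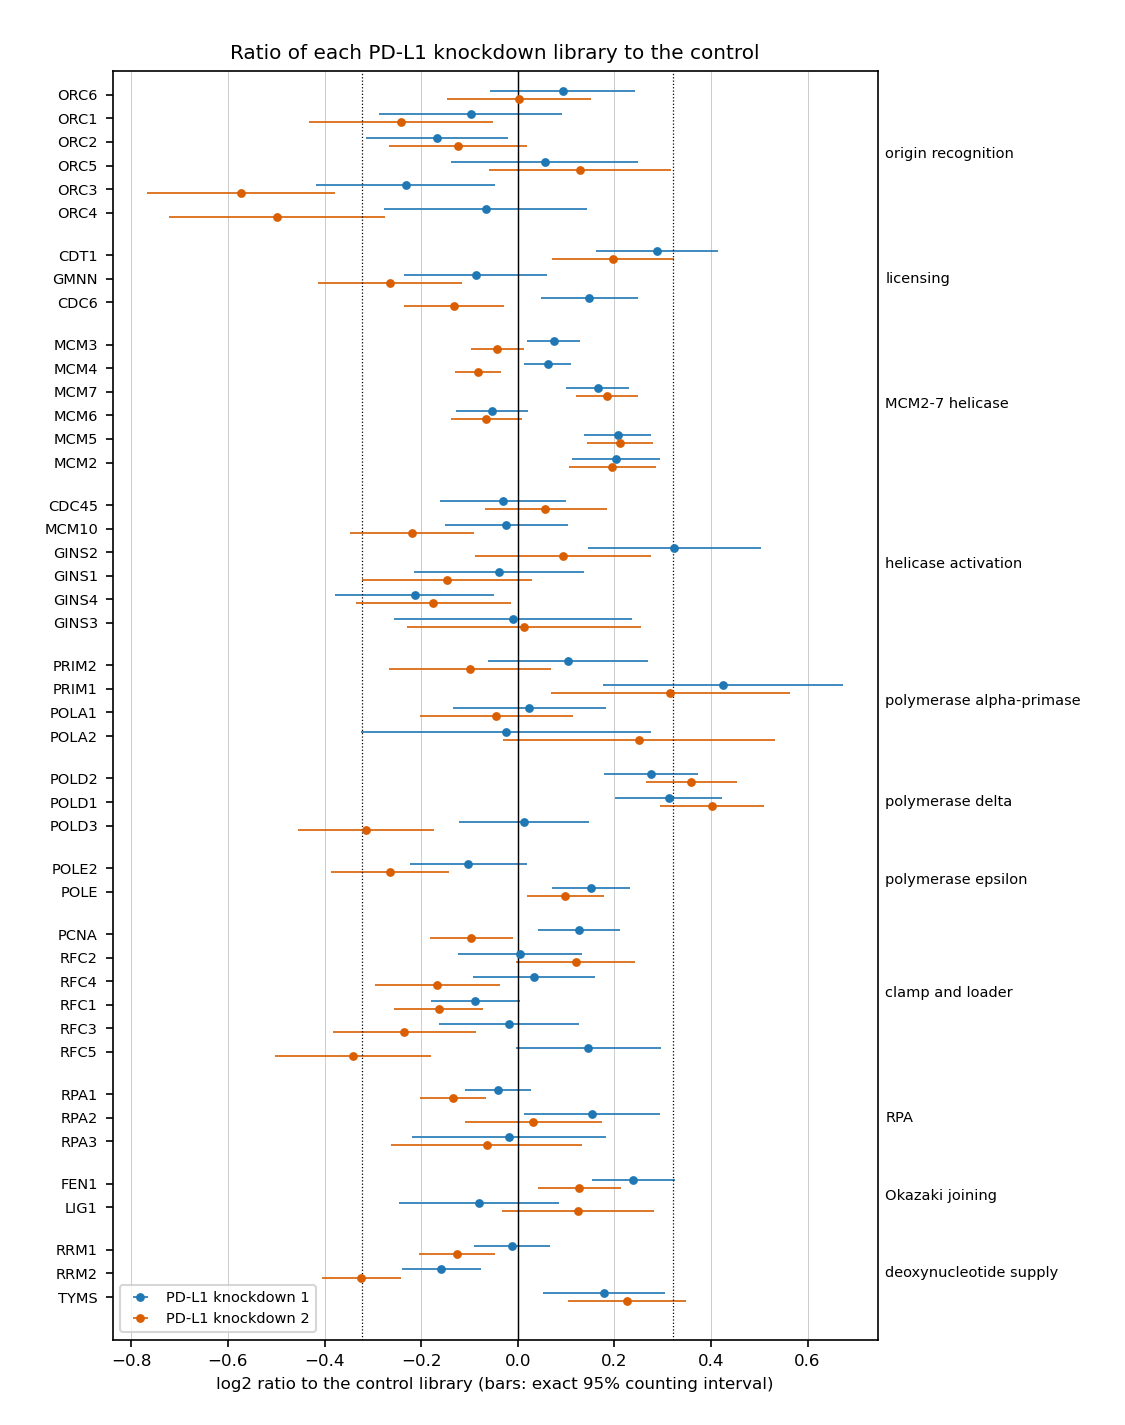
Log2 ratio of knockdown 1 and of knockdown 2 to the control for each replication gene, grouped by role; bars are exact 95% counting intervals, which cover counting error only, and dotted lines mark values 25% above and 20% below the control. Most points lie inside the dotted lines, POLD1, POLD2 and PRIM1 are to the right in both libraries, and ORC3 and RRM2 are to the left in both.

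Library by library, few members were over 25% above or over 20% below the control, which is the same step on the log scale. These comparisons share the control, and each compares 2 libraries with no replicate. In knockdown 1 there were 2 members above, GINS2 and PRIM1, and 0 below, where 6.73% of the well-counted genes were above and 4.3% below. In knockdown 2 there were 2 above, POLD1 and POLD2, where 13% of genes were, and 4 below, ORC3, ORC4, RFC5 and RRM2 (9.09%), where 10.8% were. The median log2 ratio of the members was 0.02 in knockdown 1 and -0.06 in knockdown 2, beside 0.0063 and 0.0023 for the well-counted genes. The spread of the members (SD of the log2 ratio) was 0.151 and 0.220, smaller than the 0.214 and 0.283 of those genes. Those genes were not matched to the members for count depth, so the smaller spread is not read as a trait of the members.

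The 2 libraries labelled PD-L1 knockdown also differed from each other. Scaled to the library, 31 of the 44 members were lower in knockdown 2 than in knockdown 1, with a median log2 ratio of -0.10, beside -0.0071 for the well-counted genes. The share of the well-counted genes that were lower was not worked out. By the same step, 4 members were lower, ORC3, ORC4, POLD3 and RFC5 (9.09%, where 5.52% of genes were), and 0 were higher, where 4.77% were. RFC5 had the lowest ratio, 0.714 (interval 0.639 to 0.796), and POLA2 the highest, 1.21. With no replicate of either hairpin, hairpin and library cannot be told apart.

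The small differences ran with the base composition of the transcripts, as they did over all genes. Over the 44 members the correlation of GC content with the fitted log2 fold change was r = 0.660 (Spearman's rho 0.634), and over 10859 well-counted genes it was 0.638 (rho 0.681). These are correlations across genes from the same 3 libraries, given as a description. Of the 16 members with at least 50% GC, 15 were above the control, with a median of 0.18, beside 0.15 for all genes of that class. Of the 28 members below 50% GC, 20 were below it, with a median of -0.07, beside -0.11. The shares of all genes above and below the control at these GC contents were not worked out. For well-counted genes near 54.2% GC the middle 50% of values ran from 0.0052 to 0.21, and near 37.3% GC from -0.31 to -0.14. POLD1 and POLD2 have 64.8% and 58.8% GC and ORC3 has 39.4%. Once the trends of the ratios with length and composition were taken out, the correlation over the members was -0.04, the values of POLD1, POLD2, ORC3 and RRM2 became 0.11, 0.12, -0.24 and -0.17, CDT1, at 65.2% GC, became -0.02, and PRIM1, at 40.7% GC, became 0.49. PRIM1 was then the 1 member at an unadjusted p under 0.05 (adjusted p = 0.844). The part of base composition in these differences was not tested beyond this.

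**Figure D3:**
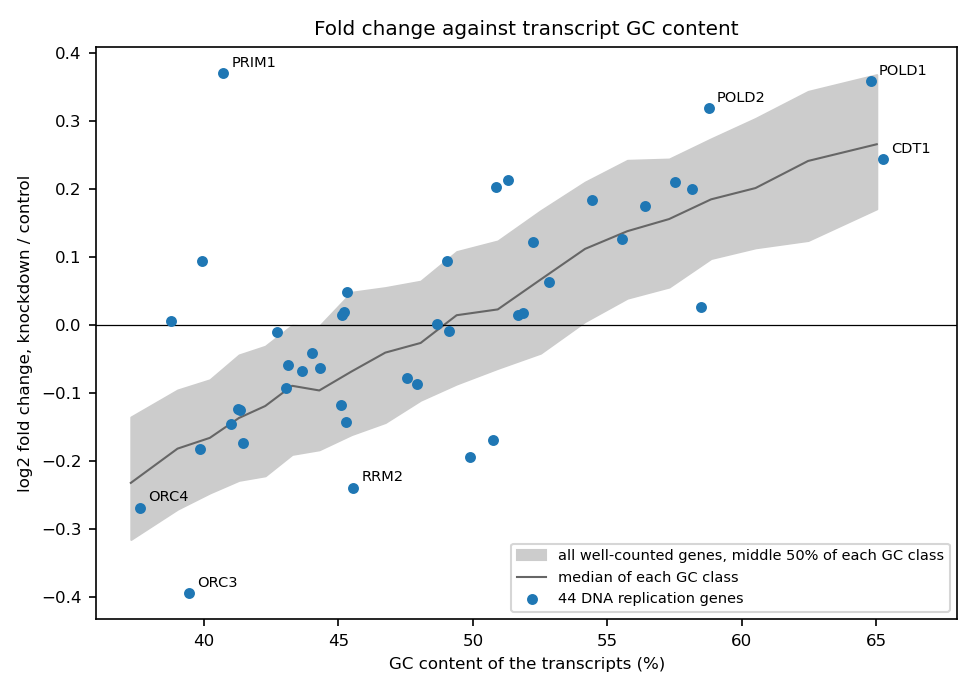
Fitted log2 fold change (libraries labelled PD-L1 knockdown against control) plotted against the GC content of the transcripts (%) for the 44 replication genes (points), over the median (line) and the middle 50% (grey band) of the well-counted genes in 20 GC classes. The points climb with the line, and PRIM1 lies far above it.

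In the comparison of the 2 hairpins with the trends removed, 30 of the 44 members were lower in knockdown 2, with a median log2 ratio of -0.08, beside -0.0072 for the well-counted genes. Here too the share of those genes that were lower was not worked out.

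Members with and without an E2F word had overlapping values. The 18 holders had a median log2 fold change of 0.02, with 12 above 0, and the 20 without had -0.07, with 9 above 0. The holders also had the higher GC content, 49.8% against 45.2% in the median. Of the 5 members at an unadjusted p under 0.05, only ORC3 held an E2F word, shown in the windows above.

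Some members share sequence or position with other genes, and how the counting treated such reads is not given in the sources used here. More than 20% of the 31-base words of 7 members also occur in another gene, namely TYMS, POLA2, GINS4, RRM2, PRIM2, MCM2 and PRIM1, and their counts are the less certain. For PRIM1, 21.6% of the exonic bases lie under other genes, namely AC117378.1, HSD17B6 and NACA. NACA had 3430, 3448 and 3705 counts, but it ends at 56731628 and PRIM1 begins at 56731596, so NACA covers only a small part of these bases. AC117378.1, which shares the most words with PRIM1 (13.05%), had 0 counts in each library, and HSD17B6 had 20, 21 and 11. TYMS overlaps its antisense neighbour ENOSF1, which had 1208, 1231 and 1270 counts. The readthrough gene that overlaps RRM2, AC007240.1, had 11, 17 and 10 counts.

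The rest of the pathway was read from a list of other genes of S phase. Of 46 further replication and S-phase genes, 0 had an adjusted p under 0.05 with edgeR (the lowest was 0.293), 3 were above and 3 below the control at an unadjusted p under 0.05, and the median was -0.09. That median was -0.0193 with length and GC trends removed, and by library it was -0.0104 in knockdown 1 and -0.13 in knockdown 2. CCNE1, the cyclin that drives entry into S phase, had 145, 194 and 225 counts (0.48, SE 0.22, adjusted p = 0.356), and POLD4, the fourth subunit of polymerase delta, had 73, 91 and 119 (0.47, SE 0.28). At the low end stood RNASEH2A, with 27, 18 and 16 counts (-0.71, SE 0.56), and ASF1A, a histone chaperone, with 528, 364 and 474 (-0.38, SE 0.16). POLE4 and TK1 were the other genes above and WDHD1 and TOP2A the others below at the unadjusted threshold.

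The E2F and RB family, the regulators of these genes, gave 0 of 13 at the adjusted threshold (lowest adjusted p 0.373) and 2 at the unadjusted one. E2F1 had 1006, 1211 and 1326 counts (0.29, SE 0.13), and RBL1, which encodes the repressor p107, had 880, 734 and 737 (-0.30, SE 0.14). E2F5 was the lowest, with 190, 147 and 165 counts (-0.33), and E2F8 the second highest, with 332, 375 and 362 (0.11). With length and GC trends removed E2F1 was at 0.02. The 7 inhibitors of cyclin-dependent kinases were all above 0, with a median of 0.34, but 0 passed the adjusted threshold (lowest adjusted p 0.167). The share of all genes above 0 was not worked out. The GC content of the 7 ran from 47.2% for CDKN1B to 62.8% for CDKN1C. Well-counted genes with at least 50% GC had a median of 0.15. With the trends removed the median of the 7 was 0.16. By library the median log2 ratio was 0.10 in knockdown 1 and 0.47 in knockdown 2, and CDKN1B was at -0.0086 from knockdown 1 alone.

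CDKN2A had 4501, 5455 and 6370 counts and CDKN1A, which encodes p21, had 867, 893 and 1378, so CDKN1A was near the control in knockdown 1. CDKN2C, the other at an unadjusted p under 0.05, had 683, 787 and 1013. CDKN2A, CDKN1A and CDKN2C made 3 of the 7 at that threshold, where 9.08% of the well-counted genes were above the control. CDKN2D and CDKN1C were the highest of the list, from 38 to 74 counts, and CDKN1B and CDKN2B the lowest, at 0.05 and 0.09. Of 16 mitotic genes 0 passed the adjusted threshold (lowest adjusted p 0.306), with a median of -0.08, or -0.0108 with the trends removed. AURKA, with 2651, 3047 and 3548 counts (0.27, SE 0.12), and AURKB, with 1018, 1161 and 1297 (0.22, SE 0.13), were the highest. CENPF, with 6729, 5826 and 5725 (-0.27, SE 0.11), and CCNB2, with 1423, 1212 and 1258 (-0.25, SE 0.13), were the lowest. CENPF was at -0.07 with the trends removed. MKI67, the usual mark of cycling cells, had 16267, 15378 and 16675 counts (-0.07, SE 0.10). Scaled to the library, MKI67 was 0.950 times the control in knockdown 1 and 0.957 times in knockdown 2.

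**Figure D4:**
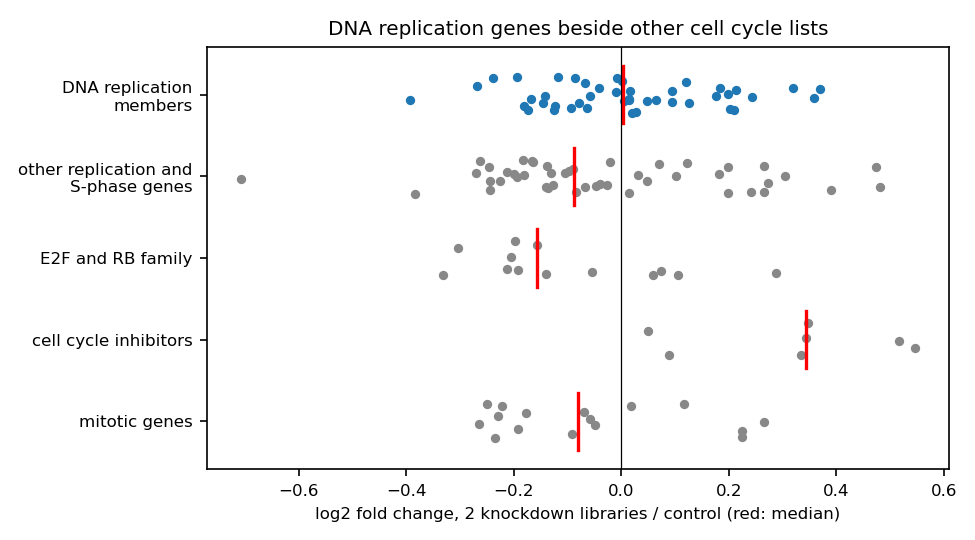
Fitted log2 fold changes (horizontal axis) of the 44 replication genes and of 4 other cell cycle lists, each point 1 gene and the red bar the median; vertical scatter only separates points. The medians lie between -0.16 and 0.0037 for 4 of the lists, and at 0.34 for the cell cycle inhibitors.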

How the data were processed

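RNA of the control and of 2 cell lines labelled PD-L1 knockdown was enriched for polyadenylated RNA and sequenced by a service company, 1 library each. The authors deposited raw read counts per gene and FPKM; per the labels, their processing notes name Bowtie2 2.0.6, TopHat2 2.0.9, Cufflinks 2.1.1 and Cuffdiff 2.1.1, without saying which made the counts. Each deposited FPKM is its count over the exon length in the file, times 1 factor per library. Gene positions match GENCODE 29 (GRCh38) for all 44 members. RBM45, another gene, stands in the header of the control's counts, and the series text names another cell line, so groups follow the sample titles.

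Counts of the 19849 genes with at least 10 counts over the 3 libraries were fitted in edgeR 4.0.16 (R 4.3.3, TMM, glmQLFit, glmQLFTest, Benjamini-Hochberg), which left 1 residual degree of freedom. The prior degrees of freedom of this fit were infinite, so the error of each gene was taken from genes together. The fit was tested on simulated data. With 2 simulated libraries against 1 control it recovered 197 of 200 changed genes among 19869, with 8 false calls. Recovery of differences as small as those of the members was not tested separately. Ratios of single libraries carry exact 95% counting intervals scaled by TMM, which hold counting error alone, since reads copied by PCR and not tagged per molecule are not independent. Trends with length and GC content were removed as offsets over 20 classes of each. Alternatives were other scalings and filters, DESeq2 1.42.0, limma-voom (limma 3.58.1) and each hairpin alone. In each role the lowest and highest fold change, members at an unadjusted p under 0.05, and the 3 highest and 3 lowest FPKM were named, and from other lists the 2 lowest and 2 highest; further genes were named after their values were seen. Members and lists were chosen with earlier results of these data known. Some marker genes of the lists are not reported here.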

Additional observations from a re-analysis of the deposited data

How the results depend on the processing

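The count of 0 members at an adjusted p under 0.05 held in all 7 tested alternatives, where the lowest adjusted p of a member was 0.169. The 5 members at an unadjusted p became 2 with DESeq2 and 1 with length and GC trends removed. The count of all tested genes at an adjusted p under 0.05, 70, became 6 with DESeq2, 42 with limma-voom and 4 with the trends removed. The median member log2 fold change ranged from -0.0614 without PD-L1 knockdown replicate 1 to 0.0184 without PD-L1 knockdown replicate 2. The span of MCM2 to MCM7 levels was 3.86 in the control alone and 3.10 by principal transcript length. The fitted log2 fold changes of the 29 members named by the stated rule depended most on the trends and on the hairpin. With the trends removed ORC4 went from -0.27 to -0.0230, POLE2 from -0.18 to -0.0413 and FEN1 from 0.18 to 0.0404. Signs reversed, mostly of values near 0 but for CDT1 from 0.24, with the trends removed for RFC1 (0.0255), MCM6 (0.0238), POLA1 (0.13), MCM4 (0.0024), MCM3 (-0.0529), PCNA (-0.0179), LIG1 (-0.13), RFC2 (-0.0508) and CDT1 (-0.0241), and for GINS3 with library totals alone (-0.0022) and with genes of a mean of at least 100 counts only (-0.0015). From knockdown 1 alone POLD3 (0.0128), POLA1 (0.0240), MCM4 (0.0620), GINS3 (-0.0095), LIG1 (-0.0796) and POLA2 (-0.0243) also changed sign, and from knockdown 2 alone MCM3 (-0.0393) and PCNA (-0.0925); POLD3 was at -0.31 from knockdown 2 alone. Members outside these 29 changed sign as well and are not all listed here. Among them RFC5, fitted at -0.08, was at 0.15 from knockdown 1 alone, and CDC6, fitted at 0.0143, was at -0.13 from knockdown 2 alone. The cause of these shifts was not tested. No paired analysis was possible because the control has 1 library and the groups share fewer than 2 replicate numbers. The single control is assumed to vary like the other libraries, and a result that leaves out a hairpin has no test.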
